A study of Mus musculus with 4 samples.

Results

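Genes of glutathione, thioredoxin, antioxidant and conjugation metabolism were followed in mouse molar tooth germs exposed to TCDD (2,3,7,8-tetrachlorodibenzo-p-dioxin), a dioxin and ligand of the aryl hydrocarbon receptor. The genes were chosen by symbol, with earlier results of these data known. They were the probe sets with a single gene symbol that begins with Gst, Gpx, Prdx, Txn, Aldh or Ugt, the Sod genes, Gclc, Gclm and Mt1 to Mt4, and the single genes Hmox1, Cat, Gsr, Taldo1, G6pdx, Ftl1, Fth1, Selenbp1 and Xdh. This gave 88 probe sets of 66 genes, out of 10833 probe sets with 1 symbol and 8251 genes. No probe set carried G6pdx or Ftl1 as its only symbol, and 5 probe sets with a matching symbol among several were left out. The symbols also bring in genes with other work, such as Txnl4a, a component of the spliceosome, Aldh1a2 and Aldh1a3, which make retinoic acid, and Ugt8a, which makes a lipid of myelin.

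The tooth germs were mandibular molars from embryonic day 14 of the NMRI mouse strain, kept for 24 h in organ culture with 1 µM TCDD (2 arrays) or with the solvent DMSO at 0.65% (2 arrays). All explants were cultured in DMEM with 10% fetal calf serum, and TCDD had been dissolved in DMSO. Ascorbic acid, itself an antioxidant, is listed in the medium of DMSO replicate 2 and of no other array. The labels alone do not show whether the media differed. Each array received RNA pooled from about 60 explants of 3 experiments, on a murine U74v2A array. Labelling started from 11 µg of total RNA for TCDD replicate 1, 8 µg for TCDD replicate 2, 11 µg for DMSO replicate 1 and 7 µg for DMSO replicate 2. The explants hold dental epithelium and mesenchyme together, so fewer cells of a type and less RNA per cell cannot be told apart. Defining genes of both tissues gave signal on every array: Msx1, of the dental mesenchyme, had 540.6 and 687.1 in TCDD explants and 605.2 and 705.0 in DMSO explants, and Dsp, the epithelial desmosome gene (94247_at), had 1379.2 and 1566.5 in TCDD explants and 936.4 and 1346.5 in DMSO explants. Of the 10 mesenchymal marker probe sets in the fit, 6 were higher and 4 lower in TCDD explants, 0 past the test. Of the 7 epithelial marker probe sets in the fit, 6 were higher and 1 lower in TCDD explants, 0 past the test. Over all probe sets tested, 51.1% were higher. The largest epithelial difference was that of Perp, with 756.8 and 738.0 in TCDD explants, against 393.2 and 592.1 in DMSO explants. The lower one, Cdh1, had 101.2 and 120.5 in TCDD explants, against 170.3 and 141.1 in DMSO explants. The second Dsp probe set (161892_r_at) gave at most 3.8 on any array. Krt5, Krt14 and Krt15, also fixed as epithelial markers, gave at most 10.8 on any array. Values are MAS5 signals, a summary of the probes of a probe set that the authors scaled to a target of 100 on each array.

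Glutathione is a small thiol that cells make with the glutamate-cysteine ligase subunits Gclc and Gclm, spend through glutathione peroxidases and S-transferases, and restore with the reductase Gsr. Thioredoxins reduce protein disulphides and feed the peroxiredoxins, and their reductases, like Gsr, draw on NADPH. Many of these genes are targets of the transcription factor Nrf2, which binds antioxidant response elements, and some (Aldh3a1, Gsta1 and Ugt1a genes among them) belong to the gene battery that the aryl hydrocarbon receptor switches on through xenobiotic response elements.

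No gene of the group changed past the test after 24 h with TCDD, while the receptor targets Cyp1a1 and Cyp1b1 did on the same arrays. Cyp1a1, the xenobiotic-metabolising P450 gene (94715_at), had signals of 194.8 and 210.5 in TCDD explants, against 14.7 and 12.7 in DMSO explants, and rose by 2.88 ± 0.22 (SE) on the log2(signal + 16) scale (limma adjusted p 0.000368). Its relative Cyp1b1 (99979_at) had 519.9 and 455.0 in TCDD explants, against 98.6 and 77.8 in DMSO explants, and rose by 2.28 ± 0.21 (SE, limma adjusted p 0.000918). Of the 88 member probe sets, 57 (46 genes) reached a mean signal of 50 over the 4 arrays and entered the fit, and 31 did not. The members of the receptor's own gene battery were among the 31. Cyp1a1 reached this mean only through its TCDD arrays, whereas Cyp1b1 was above it in both groups. Among the 57, 0 passed a limma adjusted p of 0.05, against 4 of all 5783 probe sets tested (0.0692%). That count over all probe sets was 2 without TCDD replicate 2, 2 without DMSO replicate 1 and 7 without DMSO replicate 2, and the members' count was 0 each time. At an unadjusted limma p under 0.05 there were 2 of 57 members (3.51%), against 2.59% of all probe sets tested. The limma adjusted p was 0.997 for every member tested.

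The members' differences lay where those of the array as a whole lay. Their median log2 difference, TCDD minus DMSO, was 0.02, with quartiles of -0.11 and 0.16. Over all probe sets tested the median was 0.01, with quartiles of -0.14 and 0.15. Of the 57, 30 were above 0 (52.6%), against 51.1% of all probe sets. Both TCDD arrays lay on the same side of both DMSO arrays in 19 of 57 members (33.3%), 10 higher and 9 lower in TCDD explants, against 29.8% of all probe sets, with 15.3% higher and 14.6% lower. These shares are near the background. The single-gene precision was an SE of 0.16 to 0.37. Limits of -1 and 1 are a 2-fold change of signal + 16, which is a larger change of the signal itself. An interval within them can thus still hold a 2-fold change of signal. The 95% interval of the difference stayed within -1 and 1 for 53 of the 57 members (93.5% over all probe sets). The other 4 were Gstm2 (93009_at), Gstm1 (161633_r_at), Txnrd3 (161284_r_at) and Txnl4a. A p that misses the threshold does not show that a gene was equal in both groups. Of the 57, Gpx3 reached the mean signal of 50 only through its TCDD arrays, and Gstk1 and Txnip (160548_at) only through their DMSO arrays.

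**Figure D1:**
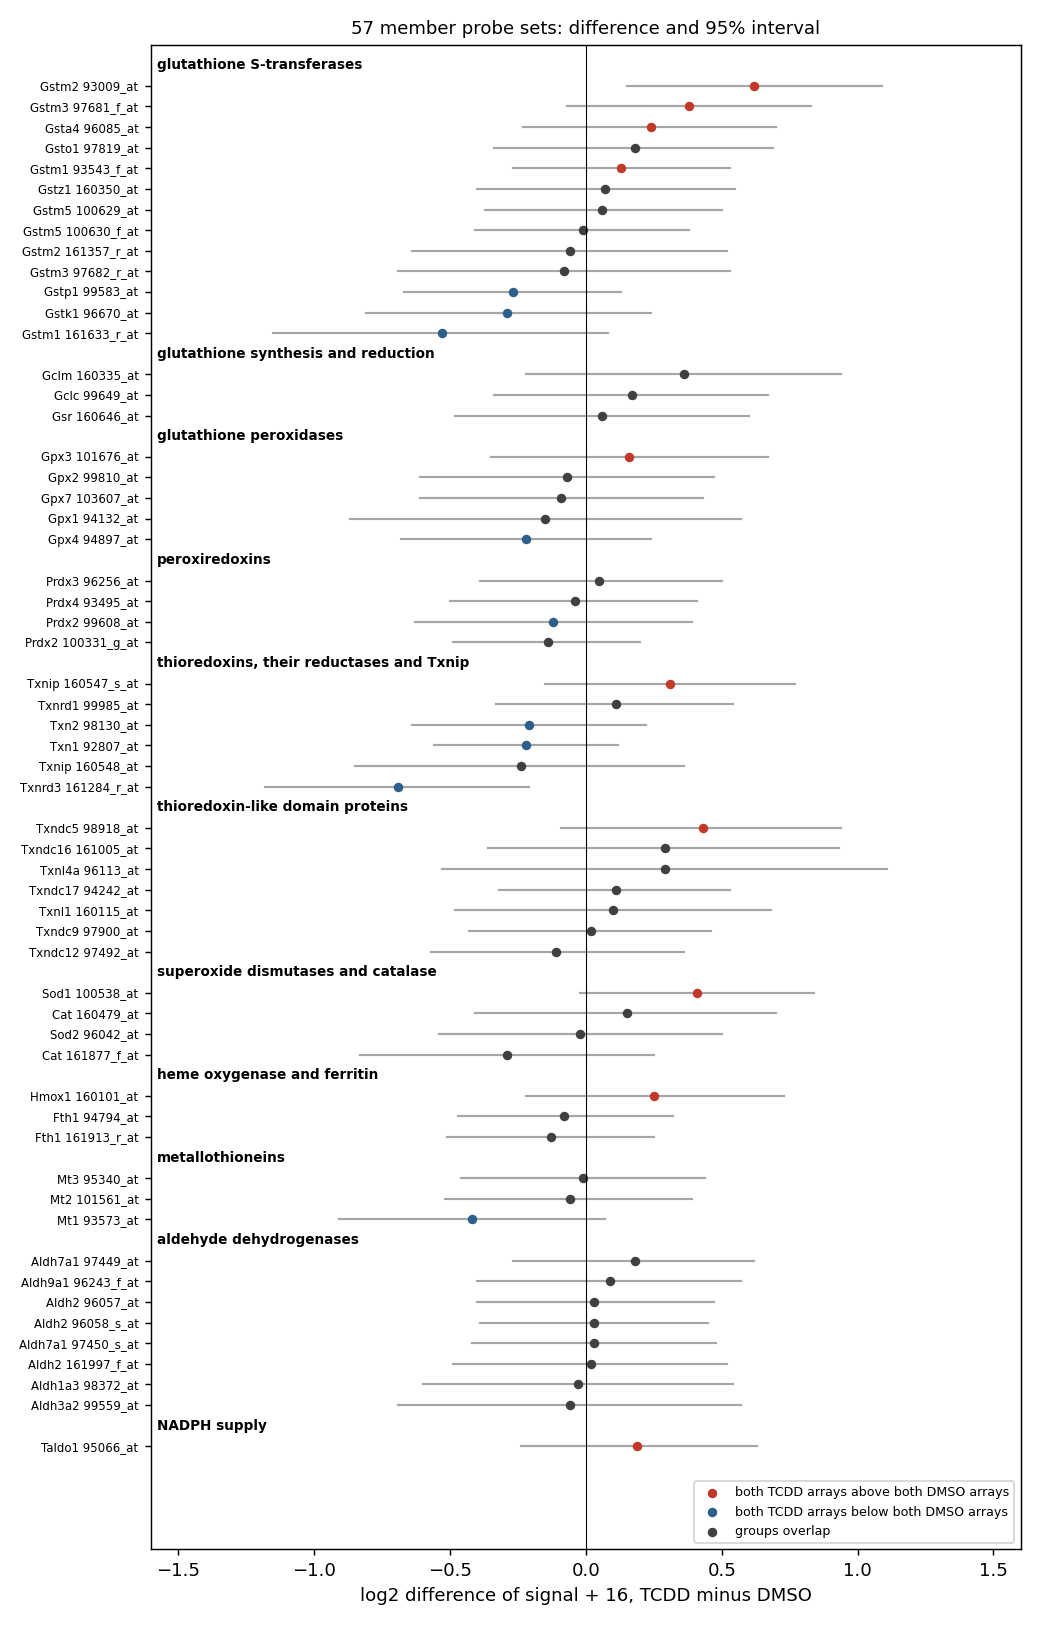
Log2 difference of signal + 16, TCDD minus DMSO, for the 57 member probe sets in the fit, by family, with limma 95% intervals as lines. Red points have both TCDD arrays above both DMSO arrays, blue points both below, and dark points overlap. The values run from -0.69 for Txnrd3 to 0.62 for Gstm2.

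**Figure D2:**
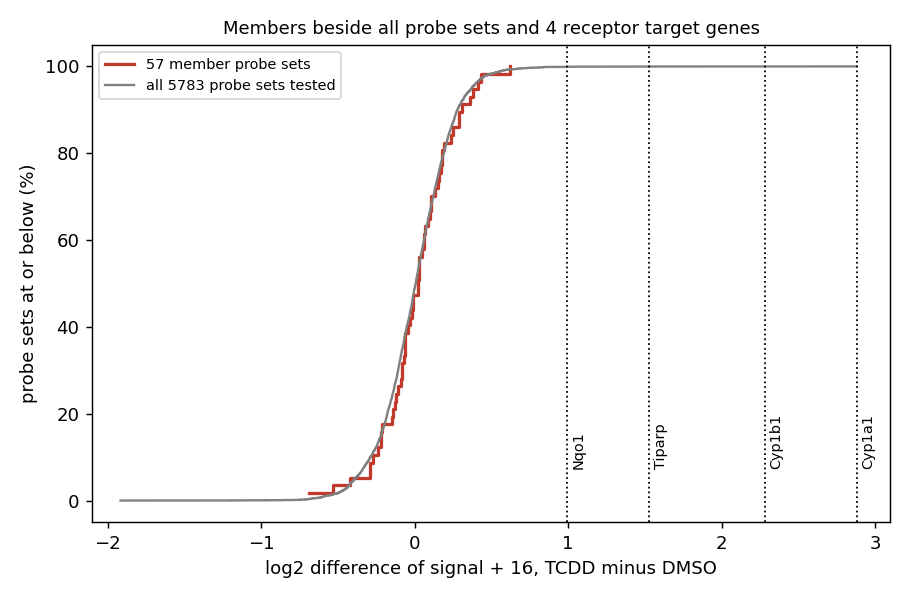
Cumulative share of probe sets (%) by log2 difference, TCDD minus DMSO, for the 57 members (red) and all 5783 probe sets tested (grey), with dotted lines at the 4 probe sets of receptor target genes outside the group that entered the fit. The red and grey curves have medians of 0.02 and 0.01, and Nqo1, Tiparp, Cyp1b1 and Cyp1a1 stand at 0.99 to 2.88, above every member. Cyp1a1 and Nqo1 passed the filter only through their TCDD arrays, so their place to the right is partly set by the filter.

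Promoters are shown for 4 genes chosen after their values were seen: Gstm2 and Txnrd3, which stand at the ends of this range, and Sod1 and Mt1, whose groups did not overlap, the first higher and the other lower in TCDD explants. The sequences are RefSeq windows of the GRCm38.p6 build, 250 bases before to 50 after the gene start, given 5′ to 3′ on the gene's strand: Sod1 at chr16:90220512-90220811 (+), Gstm2 at chr3:107986371-107986670 (-), Mt1 at chr8:94178839-94179138 (+) and Txnrd3 at chr6:89643738-89644037 (+). Capitals mark matches on either strand to GCGTG, the core of the xenobiotic response element, TGACNNNGC, the core of the antioxidant response element, and TGCACNC or TGCGCNC, the core of the metal response element.
Sod1 promoter: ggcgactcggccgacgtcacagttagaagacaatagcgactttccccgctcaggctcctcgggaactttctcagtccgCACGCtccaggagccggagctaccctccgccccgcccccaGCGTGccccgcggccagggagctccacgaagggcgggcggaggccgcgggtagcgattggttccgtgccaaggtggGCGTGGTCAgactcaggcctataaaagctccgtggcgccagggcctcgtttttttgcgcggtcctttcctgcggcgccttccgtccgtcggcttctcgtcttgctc
Gstm2 promoter: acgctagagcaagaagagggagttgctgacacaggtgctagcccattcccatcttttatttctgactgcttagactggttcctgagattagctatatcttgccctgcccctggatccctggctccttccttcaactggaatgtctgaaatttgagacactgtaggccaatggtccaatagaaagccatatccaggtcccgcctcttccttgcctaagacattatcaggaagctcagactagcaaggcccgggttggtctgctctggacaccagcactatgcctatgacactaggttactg
Mt1 promoter: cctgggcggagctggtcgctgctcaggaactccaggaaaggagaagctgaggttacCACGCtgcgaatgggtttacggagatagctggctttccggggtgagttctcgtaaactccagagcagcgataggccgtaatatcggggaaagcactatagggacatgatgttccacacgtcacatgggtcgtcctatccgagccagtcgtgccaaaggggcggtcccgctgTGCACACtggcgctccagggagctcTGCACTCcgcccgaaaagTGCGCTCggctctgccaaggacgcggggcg
Txnrd3 promoter: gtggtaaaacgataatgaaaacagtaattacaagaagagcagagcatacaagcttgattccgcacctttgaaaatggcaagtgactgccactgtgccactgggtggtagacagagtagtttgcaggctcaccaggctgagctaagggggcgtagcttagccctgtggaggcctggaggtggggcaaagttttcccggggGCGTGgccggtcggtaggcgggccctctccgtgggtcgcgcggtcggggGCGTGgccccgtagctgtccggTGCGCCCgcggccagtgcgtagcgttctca
The Sod1 window held 3 GCGTG matches, 1 of which overlaps its single TGACNNNGC match. The Gstm2 window held none of these letters. The Mt1 window held 1 GCGTG match and 3 metal response element matches near the start, and the Txnrd3 window held 2 GCGTG matches and 1 metal response element match. Windows were found for 53 of the 66 genes (66 windows). GCGTG occurred in 54.5% of them, against 46.5% of the windows of all named genes on the array and 32.4% of all 32851 windows of the table. TGACNNNGC occurred in 13.6%, against 14.1% and 12.4%, and a metal response element core in 33.3%, against 33.5% and 25.7%. A match is a description of letters and shows no binding.

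The glutathione S-transferases, which join glutathione to electrophiles, had 13 probe sets of 9 genes in the fit, 7 higher and 6 lower in TCDD explants, 0 of them past the test, with a median log2 difference of 0.06. Gstm2, a mu-class enzyme, had signals of 112.9 and 107.2 in TCDD explants at 93009_at, against 62.5 and 69.5 in DMSO explants. The arrays of each group were close together and the groups did not overlap. The log2 difference was 0.62 ± 0.21 (SE), with a 95% interval of 0.15 to 1.09, an unadjusted limma p of 0.0142 and an adjusted p of 0.997. Its other probe set (161357_r_at) had 80.7 and 94.7 in TCDD explants and 122.2 and 68.0 in DMSO explants, where the groups overlap, and differed by -0.06.

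The neighbouring mu-class genes Gstm3 and Gstm1 also had probe sets on both sides of 0, by differing amounts. Gstm3 (97681_f_at) had 132.4 and 132.7 in TCDD explants, against 96.4 and 99.8 in DMSO explants, a log2 difference of 0.38 ± 0.20 (SE) with a 95% interval of -0.07 to 0.83. Its other probe set (97682_r_at) differed by -0.08, with 94.6 and 55.7 in TCDD explants and 95.9 and 63.0 in DMSO explants, and replicate 1 was the higher array in both groups. Gstm1 (93543_f_at) had 505.9 and 522.6 in TCDD explants, against 450.9 and 485.4 in DMSO explants, a log2 difference of 0.13 ± 0.18 (SE) that was 0.08 without DMSO replicate 1. The other Gstm1 probe set (161633_r_at) lay the other way, with 75.0 and 61.0 in TCDD explants, against 144.0 and 75.8 in DMSO explants, a log2 difference of -0.53 ± 0.28 (SE) that was -0.13 without DMSO replicate 1 and -0.93 without DMSO replicate 2. Mu-class transcripts are close in sequence, and the suffix f marks probe sets shared by a gene family. The lower probe sets of Gstm1, Gstm2 and Gstm3 all carry the suffix r, for relaxed design rules of the array. These values thus cannot be given to single genes with certainty. Of the 10 member genes with several probe sets in the fit, 6 had probe sets on both sides of 0: Gstm1, Gstm2, Gstm3, Gstm5, Cat and Txnip.

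Among the other transferases, Gstp1, the pi-class enzyme, had 643.4 and 721.8 in TCDD explants, against 901.8 and 753.8 in DMSO explants. Both TCDD arrays were lower, and the log2 difference was -0.27 ± 0.18 (SE), with a 95% interval of -0.67 to 0.13. It was -0.14 without DMSO replicate 1. Gsta4, which conjugates the lipid peroxidation product 4-hydroxynonenal, had 107.7 and 96.4 in TCDD explants, against 84.3 and 83.6 in DMSO explants, a log2 difference of 0.24 ± 0.21 (SE). Gstk1, the mitochondrial and peroxisomal kappa-class enzyme, had 50.4 and 39.0 in TCDD explants, against 58.7 and 56.7 in DMSO explants, a log2 difference of -0.29 ± 0.24 (SE) that was -0.15 without TCDD replicate 2. Gsto1, the omega-class enzyme, had 209.6 and 267.6 in TCDD explants and 170.8 and 252.3 in DMSO explants, where replicate 2 was the higher array in both groups, a log2 difference of 0.18 ± 0.23 (SE).

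For the synthesis and reduction of glutathione, Gclc, Gclm and Gsr were all above 0, none past the test. Gclm, the modifier subunit of glutamate-cysteine ligase, had 99.9 and 58.2 in TCDD explants and 61.8 and 51.4 in DMSO explants. Only TCDD replicate 1 stood above the DMSO range, and the log2 difference of 0.36 ± 0.26 (SE) was 0.04 without that array and 0.68 without TCDD replicate 2. Gclc, the catalytic subunit, had 100.2 and 75.1 in TCDD explants and 82.8 and 69.1 in DMSO explants, a log2 difference of 0.17 ± 0.23 (SE). Gsr, glutathione reductase, had 162.1 and 118.2 in TCDD explants and 161.4 and 107.4 in DMSO explants. Its 2 replicate 1 arrays were alike and its 2 replicate 2 arrays were alike, and the log2 difference between treatments was 0.06 ± 0.25 (SE), with a 95% interval of -0.48 to 0.60.

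The glutathione peroxidases, which reduce hydrogen peroxide and lipid peroxides, had 5 genes in the fit, 1 higher and 4 lower, with a range of -0.22 to 0.16. Gpx1, the ubiquitous cytosolic enzyme, had 152.5 and 91.7 in TCDD explants and 196.5 and 89.2 in DMSO explants. Replicate 1 was the high array in both groups, and the log2 difference of -0.15 ± 0.33 (SE) was 0.36 without DMSO replicate 1 and -0.66 without DMSO replicate 2. Gpx4, which protects membranes from lipid peroxides, had 163.1 and 168.6 in TCDD explants, against 223.1 and 171.6 in DMSO explants, a log2 difference of -0.22 ± 0.21 (SE). It was -0.05 without DMSO replicate 1, the only array of the 4 that stood apart. Gpx3, the secreted enzyme, had 59.5 and 55.3 in TCDD explants, against 49.8 and 49.6 in DMSO explants, a log2 difference of 0.16 ± 0.23 (SE).

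The peroxiredoxins, peroxidases recycled by thioredoxin, had 4 probe sets of 3 genes in the fit, between -0.14 and 0.05. Prdx2, which is abundant in red blood cells, had 1953.1 and 2301.6 in TCDD explants at 100331_g_at and 2269.8 and 2412.7 in DMSO explants, with overlap and a log2 difference of -0.14 ± 0.16 (SE). It was -0.02 without TCDD replicate 1 and -0.26 without TCDD replicate 2. At 99608_at it had 55.0 and 46.3 in TCDD explants, against 57.0 and 55.5 in DMSO explants, and differed by -0.12, or by -0.03 without TCDD replicate 2 and -0.21 without TCDD replicate 1. Red blood cell markers were also measured: of 8 listed genes 6 were on the array, and their probe sets summed to 2794.4 and 3821.2 in TCDD explants and to 3795.0 and 4046.8 in DMSO explants. Of the 3 in the fit, 1 was higher and 2 lower in TCDD explants, 0 past the test. The alpha globin gene Hba-a1 made up most of this, with 2440.9 and 3349.1 in TCDD explants, against 3378.4 and 3580.1 in DMSO explants, while Epb42 had at most 7.8 on any array. Hba-x, the embryonic alpha-like globin gene, had 249.6 and 348.0 in TCDD explants and 305.7 and 323.0 in DMSO explants, with overlap. Alas2, the erythroid enzyme of heme synthesis, lay the other way at 63.2 and 87.8 in TCDD explants and 57.2 and 82.3 in DMSO explants, also with overlap, a log2 difference of 0.10 ± 0.25 (SE). The part of red blood cells in the Prdx2 signal was not tested.

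Thioredoxins and their partners had 6 probe sets of 5 genes in the fit, 2 higher and 4 lower, none past the test, with a median of -0.22. Txn1, the cytosolic thioredoxin, had 1510.9 and 1633.2 in TCDD explants, against 1859.1 and 1812.0 in DMSO explants. Both TCDD arrays were lower, by 0.22 on the log2 scale (-0.22 ± 0.16, SE, 95% interval -0.56 to 0.12), and the difference was -0.30 within replicate 1 and -0.15 within replicate 2. Txn2, the mitochondrial thioredoxin, had 213.6 and 221.1 in TCDD explants, against 267.2 and 241.1 in DMSO explants, a log2 difference of -0.21 ± 0.19 (SE) that was -0.14 without DMSO replicate 1. Both thioredoxins thus lay lower on both TCDD arrays, with 95% intervals that include 0.

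The reductases lay on both sides of 0. Txnrd1, the cytosolic reductase and a known Nrf2 target, had 230.4 and 268.1 in TCDD explants and 232.5 and 227.1 in DMSO explants, a log2 difference of 0.11 ± 0.20 (SE) with overlap. It was 0.00 without TCDD replicate 2 and 0.21 without TCDD replicate 1. Txnrd3, a reductase best known from the testis (161284_r_at), had 123.0 and 109.7 in TCDD explants, against 231.1 and 169.3 in DMSO explants. It had the lowest difference of the 57 members, -0.69 ± 0.22 (SE), with a 95% interval of -1.18 to -0.21, an unadjusted limma p of 0.00908 and an adjusted p of 0.997. Its other probe set (161043_r_at), below the filter, had 10.8 and 2.7 in TCDD explants and 24.7 and 3.6 in DMSO explants. The suffix r marks probe sets for which the array's design rules were relaxed. Txnip, which binds thioredoxin and limits it, split by probe set: 160547_s_at had 299.5 and 334.3 in TCDD explants, against 218.7 and 289.5 in DMSO explants, a log2 difference of 0.31 ± 0.21 (SE), and 160548_at differed by -0.24. The first was 0.12 without DMSO replicate 1 and 0.50 without DMSO replicate 2.

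Proteins with a thioredoxin-like domain had 7 genes in the fit, 6 above 0, with a range of -0.11 to 0.43 and none past the test. Txndc5, a protein disulphide isomerase of the endoplasmic reticulum, had 320.3 and 309.3 in TCDD explants, against 181.3 and 291.2 in DMSO explants. DMSO replicate 1 was the low array, and the log2 difference of 0.43 ± 0.23 (SE) was 0.11 without it and 0.75 without DMSO replicate 2. Txnl4a had 262.1 and 554.4 in TCDD explants and 208.4 and 456.5 in DMSO explants, so that replicate 2 was about as far above replicate 1 in both groups, while the log2 difference between treatments was 0.29 ± 0.37 (SE).

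**Figure D3:**
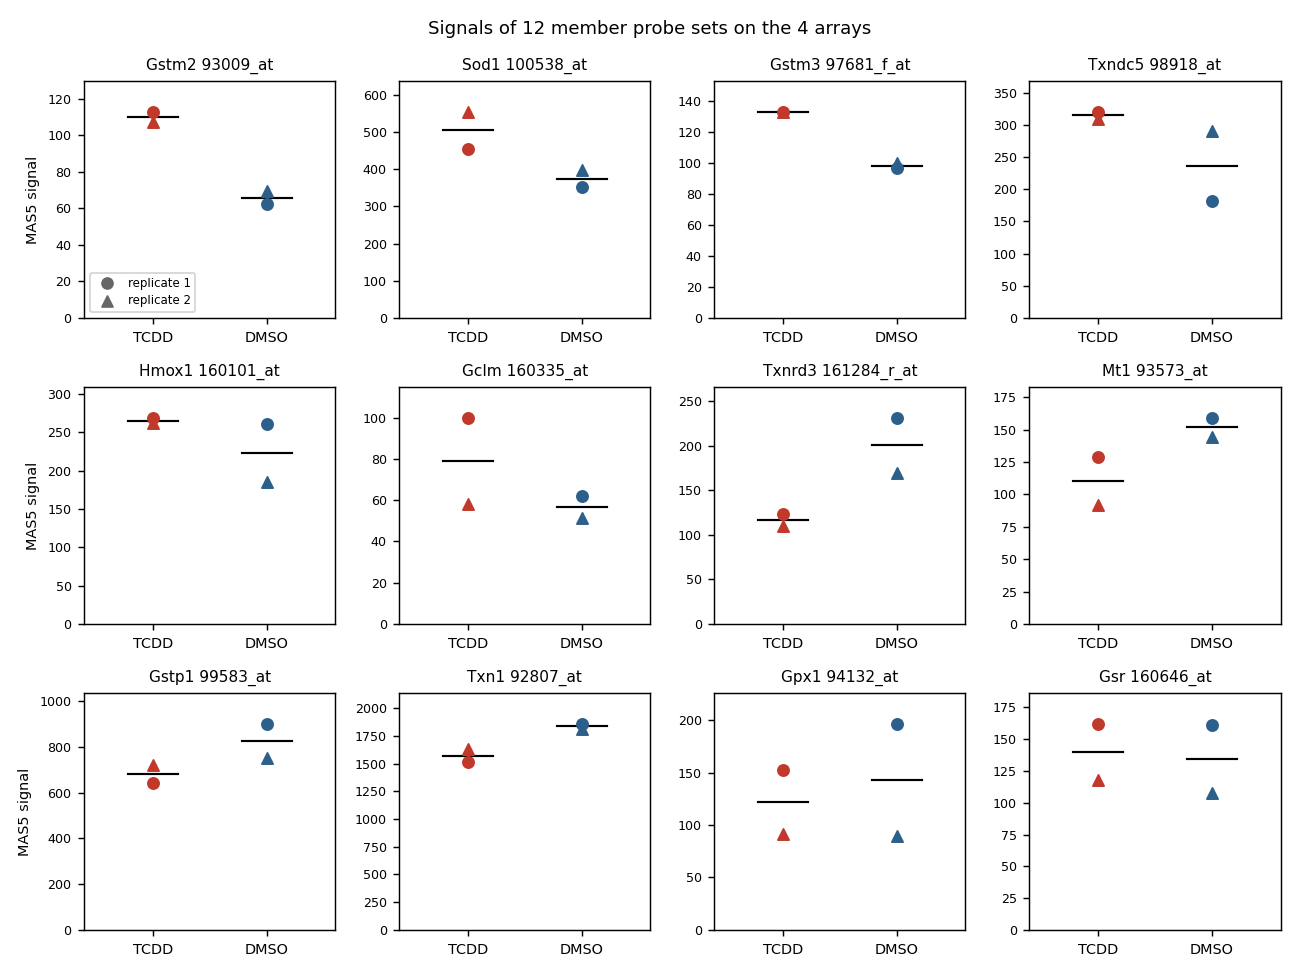
MAS5 signals of 12 member probe sets on the 4 arrays, with TCDD left of DMSO, circles for replicate 1, triangles for replicate 2 and black bars for group means. Gstm2 and Gstm3 arrays lie close within each group and apart between groups, whereas Gpx1 and Gsr separate by replicate number.

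Superoxide dismutases turn superoxide into hydrogen peroxide, which catalase removes. Sod1, the cytosolic enzyme, had 454.6 and 553.4 in TCDD explants, against 350.6 and 397.9 in DMSO explants. Both TCDD arrays were above both DMSO arrays, within replicate 1 by 0.36 and within replicate 2 by 0.46 on the log2 scale. The log2 difference was 0.41 ± 0.19 (SE), with a 95% interval of -0.02 to 0.84 and an unadjusted limma p of 0.0587. It was 0.27 without TCDD replicate 2. Sod2, the mitochondrial enzyme, had 79.8 and 56.1 in TCDD explants and 70.7 and 65.7 in DMSO explants, a log2 difference of -0.02 ± 0.24 (SE) that was 0.02 with quantile normalisation. Sod3, the extracellular enzyme, was below the filter, with 26.4 and 34.1 in TCDD explants and 51.9 and 21.2 in DMSO explants.

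Catalase (Cat) had probe sets on both sides of 0. At 160479_at it had 130.1 and 93.0 in TCDD explants and 120.5 and 79.3 in DMSO explants, higher on replicate 1 in both groups, with a log2 difference of 0.15 ± 0.25 (SE). At 161877_f_at it had 121.4 and 139.7 in TCDD explants and 208.2 and 127.3 in DMSO explants, a log2 difference of -0.29 ± 0.25 (SE) that was 0.03 without DMSO replicate 1.

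Hmox1, which breaks down heme and is a widely used sign of oxidative stress, had 268.7 and 261.6 in TCDD explants, against 261.0 and 184.5 in DMSO explants. The groups were separated only by the margin between 261.6 and 261.0, with DMSO replicate 2 as the low array. The log2 difference was 0.25 ± 0.22 (SE), with a 95% interval of -0.22 to 0.73. It was 0.02 without DMSO replicate 2 and 0.49 without DMSO replicate 1. The label of DMSO replicate 2 lists ascorbic acid, and this array also had 7 µg of RNA and its own pool of explants. These cannot be told apart, and their part in the Hmox1 signal was not tested. Macrophages also express this gene, and of 9 listed macrophage genes, all on the array, 7 were in the fit, each above 0 and 0 past the test. All their probe sets, those below the filter included, summed to 917.6 and 879.3 in TCDD explants, against 808.6 and 677.2 in DMSO explants. This sum was lowest in DMSO replicate 2, but the markers in the fit were divided. Cd68, Csf1r, Ctss and C1qa were lowest in DMSO replicate 2. C1qb and C1qc were lowest in DMSO replicate 1, and Lyz2 had 73.7 on both DMSO arrays. Below the filter, C1qb (162276_i_at) had 69.7 in DMSO replicate 1 and 28.2 in DMSO replicate 2. The part of macrophages in the Hmox1 signal was not tested. Fth1, the heavy chain of the iron store ferritin, differed by -0.08 ± 0.18 (SE) at 94794_at, where it had 1846.9 and 2306.5 in TCDD explants and 1942.1 and 2437.8 in DMSO explants, and by -0.13 at 161913_r_at. The second was -0.03 without TCDD replicate 1, -0.23 without TCDD replicate 2, -0.21 without DMSO replicate 1 and -0.05 without DMSO replicate 2.

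Metallothioneins are small cysteine-rich proteins that bind zinc and copper. Mt1 had 128.7 and 92.1 in TCDD explants, against 159.1 and 144.3 in DMSO explants. Both TCDD arrays were lower, within replicate 1 by a log2 difference of -0.28 and within replicate 2 by one of -0.57. The log2 difference over the 4 arrays was -0.42 ± 0.22 (SE), with a 95% interval of -0.91 to 0.07, and it was -0.21 without TCDD replicate 2. Mt2, the gene next to it, had 498.3 and 397.0 in TCDD explants and 528.6 and 409.9 in DMSO explants, with overlap and a log2 difference of -0.06 ± 0.21 (SE). Mt3, known mainly from the brain, differed by -0.01, and Mt4, known from stratified epithelia, was below the filter with at most 6.3 on any array.

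Aldehyde dehydrogenases oxidise aldehydes to acids. In the fit were 8 probe sets of 5 genes (Aldh1a3, Aldh2, Aldh3a2, Aldh7a1 and Aldh9a1), with log2 differences of -0.06 to 0.18, and in 0 of the 8 were the groups apart, against 29.8% of all probe sets tested. Aldh3a2, which oxidises fatty aldehydes (99559_at), had 47.5 and 68.7 in TCDD explants and 43.8 and 81.9 in DMSO explants, and the log2 difference was -0.06 ± 0.29 (SE). It was 0.02 with quantile normalisation. Taldo1, transaldolase of the pentose phosphate pathway that supplies NADPH, had 222.4 and 211.2 in TCDD explants, against 176.4 and 199.1 in DMSO explants, a log2 difference of 0.19 ± 0.20 (SE) that was 0.11 without DMSO replicate 1.

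The members that belong to the receptor's own gene battery were all too dim for the fit. Aldh3a1, a known dioxin-inducible aldehyde dehydrogenase, had 29.6 and 29.2 in TCDD explants at 99548_at and 39.8 and 23.0 in DMSO explants, and its other probe set (162331_f_at) had at most 9.3. Gsta1 had at most 1.8 on any array. Gsta2 had 32.2 and 31.9 in TCDD explants and 60.3 and 18.6 in DMSO explants, so that the TCDD arrays lay between the DMSO arrays. Selenbp1, a selenium-binding protein, had 44.4 and 44.9 in TCDD explants, against 31.5 and 36.4 in DMSO explants, and differed by 0.28 on the log2(signal + 16) scale, with no overlap between the groups. Xdh, xanthine dehydrogenase, had 10.4 and 11.4 in TCDD explants, against 5.2 and 8.3 in DMSO explants, again with no overlap at these low signals. No probe set carried a Ugt1a gene as its only symbol, and the Ugt genes measured (Ugt2b34, Ugt2b5 and Ugt8a) were below the filter. Outside the members, the battery list had 10 probe sets of 7 genes, of which 4 were in the fit, all higher in TCDD explants, with Cyp1a1 (94715_at) and Cyp1b1 (99979_at) past the test. Cyp1a1 and Nqo1 reached the mean signal of 50 only through their TCDD arrays, so the direction of those in the fit is partly set by the filter. The quinone reductase gene Nqo1 (94351_r_at) had 104.0 and 67.6 in TCDD explants, against 30.8 and 38.1 in DMSO explants, a log2 difference of 0.99 ± 0.26 (SE, limma adjusted p 0.997). Its other probe set (94350_f_at), below the filter, had 56.2 and 28.3 in TCDD explants and 34.6 and 30.5 in DMSO explants, with overlap. Tiparp had 147.8 and 271.3 in TCDD explants, against 61.1 and 57.1 in DMSO explants, a log2 difference of 1.53 ± 0.27 (SE, limma adjusted p 0.167). The other battery probe sets below the filter, named after their values were seen, lay on both sides. Ahrr, the receptor's repressor, had 38.5 and 54.2 in TCDD explants, against 22.1 and 23.8 in DMSO explants, and Cyp1a2 had 6.2 and 6.0 in TCDD explants, against 12.9 and 12.6 in DMSO explants. The second Cyp1a1 probe set (161831_at) had 15.5 and 18.5 in TCDD explants and 32.5 and 3.6 in DMSO explants, and Serpinb2 had 13.8 and 13.6 in TCDD explants and 19.4 and 11.5 in DMSO explants, both with overlap. The second Cyp1b1 probe set (161368_r_at) had at most 1.3 on any array.

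Other genes of the same pathways were taken from fixed lists. Of 23 listed genes of the Nrf2 pathway 21 were on the array, and of their 15 probe sets in the fit 11 were higher and 4 lower, 0 past the test. Over all probe sets tested, 51.1% were higher. The median log2 difference was 0.07, against 0.01 over all probe sets. Among the 15, Nqo1 passed the filter only through its TCDD arrays and Hmox2 only through its DMSO arrays. Hmox2 was one of the 4 lower, with a log2 difference of -0.42 ± 0.24 (SE). Nfe2l2, which encodes Nrf2, had 327.5 and 252.0 in TCDD explants, against 230.6 and 169.0 in DMSO explants, with replicate 1 higher in both groups and a log2 difference of 0.51 ± 0.22 (SE, unadjusted limma p 0.0459, adjusted p 0.997). Tkt, transketolase of the pentose phosphate pathway, had 449.3 and 392.7 in TCDD explants, against 268.0 and 359.9 in DMSO explants, a log2 difference of 0.42 ± 0.21 (SE). Of 27 listed glutathione and redox partners 18 were on the array, and 5 probe sets were higher and 8 lower, 0 past the test, with a median of -0.02. Glrx, glutaredoxin, had 123.5 and 85.1 in TCDD explants, against 136.0 and 124.0 in DMSO explants, a log2 difference of -0.30 ± 0.23 (SE). Of the other conjugation enzymes, 2 probe sets were in the fit: Ugdh, which makes the sugar donor for glucuronidation, differed by 0.01 and Tpmt, a thiol methyltransferase, by -0.03. In metal and iron handling 3 probe sets were in the fit, 0 past the test. Among them, Tfrc, the transferrin receptor (103958_g_at), had 286.7 and 283.5 in TCDD explants, against 585.2 and 327.8 in DMSO explants, a log2 difference of -0.59 ± 0.25 (SE) with DMSO replicate 1 far above the other 3 arrays.

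The members also differed between the arrays of a group. The median absolute log2 difference between replicates was 0.20 in TCDD explants and 0.22 in DMSO explants over the 57 members, against 0.21 and 0.22 over all probe sets tested. Replicate 1 minus replicate 2 had the same sign in both groups in 40 of 57 members (70.2%), against 59% of all probe sets tested. The 2 differences had a Pearson correlation of 0.49 across the 57 members, or 0.39 without Txnl4a, and of 0.38 across all 5783 probe sets, as a description over probe sets that share the same 4 arrays. In 10 members (17.5%) the difference between replicates was over 0.3 with the same sign in both groups, against 12.7% of all probe sets. Txnl4a stood farthest out, with replicate 1 minus replicate 2 at -1.04 in TCDD explants and -1.07 in DMSO explants. Gpx1 had 0.65 in TCDD explants and 1.01 in DMSO explants, Gstm3 (97682_r_at) 0.63 and 0.50, Cat (160479_at) 0.42 and 0.52, and Gsr 0.41 and 0.52. Aldh3a2 had -0.42 in TCDD explants and -0.71 in DMSO explants, Gsto1 -0.33 and -0.52, and Fth1 (94794_at) -0.32 and -0.33. The number goes with the amount of RNA labelled, 11 µg for both replicate 1 arrays and 8 or 7 µg for the replicate 2 arrays, and the 2 cannot be told apart.

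**Figure D4:**
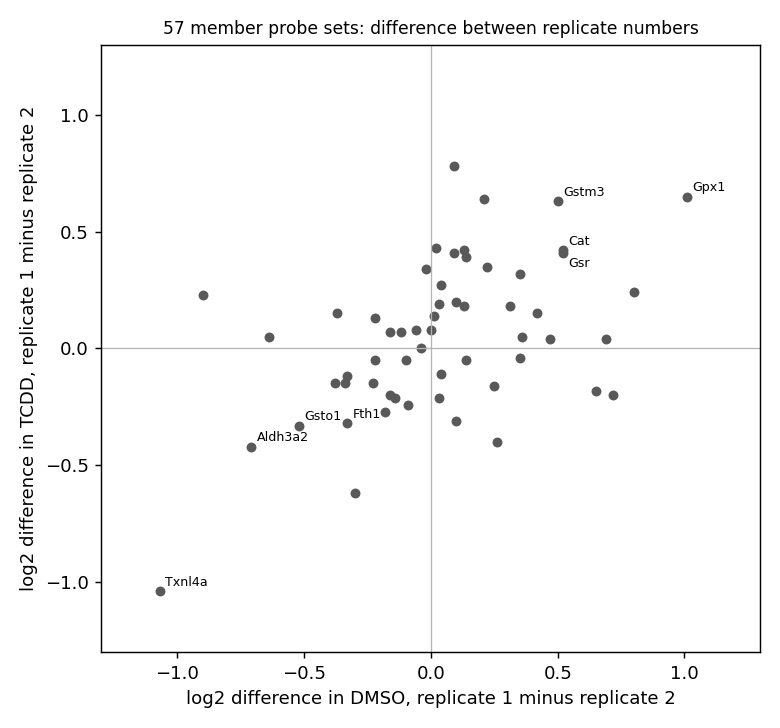
Log2 difference of signal + 16 between replicate 1 and replicate 2, in TCDD explants (vertical axis) and DMSO explants (horizontal axis), for the 57 member probe sets. In 40 of them both differences have the same sign, with Txnl4a at the lower left and Gpx1 at the upper right.

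The 31 members below the filter had signals of at most 85.8 on any array, and 24 of them (77.4%) were lower in TCDD explants by the group means of log2 values. Dim probe sets in general lay the same way: of all 6639 probe sets below the filter, 71.1% were lower in TCDD explants, with a median log2 difference of -0.10, against -0.11 for the members. DMSO replicate 1 was the highest of the 4 arrays in 18 of the 31 members (58.1%), against 56.9% of all probe sets below the filter. In the fit it was highest in 16 of 57 members (28.1%), against 28.4% of all probe sets tested. Without a filter, 0 of the 88 members passed a limma adjusted p of 0.05, and 4 had an unadjusted p under 0.05.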

How the data were processed

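The deposited table gives a linear MAS5 intensity for each probe set on each array, made by the authors with Affymetrix Microarray Suite 5.0 at a target signal of 100, per the labels. Detection calls were not used here, so whether a probe set was above background is unknown, and precision is limited by having 4 arrays. Of the 49952 values, 18515 (37.1%) are day serials (38718 to 38990), left by a spreadsheet that read a signal as a date. They were turned back into day and month as whole part and decimal. The mean trimmed by 2% at each end was then 100.05 on each array. Of the members' 352 values 88 were repaired, all in probe sets below the filter.

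Symbols came from the platform annotation, looked up by Entrez ID in the GRCm38.p6 gene table (10817 of 10833 matched, 0 changed). Control probe sets (66) were left out. Differences of log2(signal + 16) came from limma 3.58.1 (R 4.3.3), using lmFit and eBayes with a variance trend, on the 5783 probe sets whose signal averaged 50 or more, with Benjamini-Hochberg adjustment over all of them. The fit had 10.8 degrees of freedom in total, of which 8.8 came from the spread of all probe sets tested. The offset understates changes of dim genes. Intervals are 95% limma intervals. The procedure was tested on simulated data, with a pass mark for recovery set only for the largest changes. How often smaller changes are found is not given here. An array is a pool of explants. The p-values set a difference against the spread between 2 pools a group, drawn towards the spread of other probe sets of similar signal.

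The members, lists and naming rule were chosen with earlier results of these data known. The rule names members past the test (0), up to 24 whose groups do not overlap (19 found), receptor battery members, a fixed set of core genes, other probe sets of these genes, and up to 8 members that differ by replicate number. Of each list, up to 3 genes with the smallest p may be named, besides markers given to check the tissue. Alternatives were the offset, the filter, quantile normalisation, the repair, the variance trend, each array left out, the replicate number as a block, and each replicate number alone.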

Additional observations from a re-analysis of the deposited data

How the results depend on the processing

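No member passed the limma adjusted p of 0.05 under any of the alternatives run, and the lowest adjusted p of a member was 0.0745, for Txnrd3 with the replicate number as a block. The number of probe sets called over the whole array was 4, with 2 without a filter, 32 with the replicate block and 2 to 7 with an array left out. The labels do not say that the numbers pair the samples, and the differences between numbers correlated by 0.38 over 2 pairs of arrays. The block changed no call of a member at the adjusted p. At an unadjusted limma p under 0.05 it gave 6 of 57 members, against 2 in the main fit. The share over all probe sets with the block was not counted at that threshold. The median log2 difference of the members was 0.02, with -0.03 without a filter over 88 probe sets, 0.09 within replicate 1 alone, 0.03 within replicate 2 alone, and -0.02 to 0.07 with an array left out. Of the 37 member probe sets followed by the naming rule, 23 kept their direction in every alternative fit run for them. This count is largely fixed in advance and is no measure of stability. The 19 named because their groups do not overlap cannot turn when an array is left out. The filter, the repair, the variance trend and the block leave the log2 difference of these probe sets unchanged. Quantile normalisation turned Sod2 (0.02) and Aldh3a2 (0.02). Leaving out each array gave log2 differences on both sides of 0, none past the test: -0.24 to 0.11 for Mt2 101561_at, -0.11 to 0.41 for Cat 160479_at, -0.59 to 0.10 for Txnip 160548_at, -0.20 to 0.33 for Gsr 160646_at, -0.42 to 0.30 for Gstm2 161357_r_at, -0.62 to 0.03 for Cat 161877_f_at, -0.66 to 0.36 for Gpx1 94132_at, -0.24 to 0.09 for Fth1 94794_at, -0.22 to 0.19 for Sod2 96042_at, -0.25 to 0.83 for Txnl4a 96113_at, -0.39 to 0.23 for Gstm3 97682_r_at, -0.09 to 0.44 for Gsto1 97819_at, -0.42 to 0.29 for Aldh3a2 99559_at, -0.01 to 0.34 for Gclc 99649_at. Each of these fits sets 1 array against 2, and the lone array is assumed to vary like the others. With 2 pools a group, differences whose 95% interval holds 0 could not be told from 0. An interval without 0 was not enough to pass the test over all probe sets. Gstm2 (93009_at) and Txnrd3 (161284_r_at) had such intervals and a limma adjusted p of 0.997. Tiparp, at a log2 difference of 1.53, had a limma adjusted p of 0.167.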
